A study of Homo sapiens with 6 samples.

Results

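The genes described here are 8 genes of ganglioside metabolism: UGCG, ST3GAL5, ST8SIA1, B4GALNT1, B3GALT4, ST3GAL2, ST8SIA5 and NEU1. They were taken by symbol, as a fixed list of names, from count tables of 19923 protein-coding genes, and all 8 were found. The list was chosen with earlier results of these data known. The RNA-seq libraries were made from poly(A)-selected RNA of Kelly, an established human neuroblastoma cell line with amplified MYCN whose genotype is given as WT. The cells had been transiently transfected for 72 hours with siControl (control siRNA, 3 libraries) or siMETTL3 (siRNA targeting METTL3, 3 libraries), at an siRNA concentration that the labels give as 20 µM. The model is 1 cell line with 1 siRNA treatment per group, and the labels do not say whether the replicates came from separate cultures, so that p-values measure the spread between these libraries, which may be technical.

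Gangliosides are sphingolipids of the cell surface that carry sialic acid and are abundant on neurons. Their sugar chain is built step by step on ceramide in the Golgi: a glucose and a galactose give lactosylceramide, a first sialic acid gives GM3, a second gives GD3, and an N-acetylgalactosamine then turns GM3 into GM2 and GD3 into GD2. GD2 is displayed at high density by most neuroblastomas and is the target of the therapeutic antibodies used against this tumour. Of the genes described here, UGCG starts the chain, ST3GAL5 makes GM3, ST8SIA1 makes GD3, B4GALNT1 makes GM2 and GD2, B3GALT4, ST3GAL2 and ST8SIA5 extend the chain beyond GD2, and NEU1 encodes a lysosomal sialidase that removes sialic acid.

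The libraries held between 15430000 and 21565013 counts. METTL3, the methyltransferase that places N6-methyladenosine on mRNA, fell from 54.2 ± 1.80 to 33.04 ± 1.27 CPM (SD, n = 3), to 61.0% of its siControl level (edgeR FDR 4.68e-06). Its span overlaps that of TOX4, which was itself lower (log2 fold change -0.20, edgeR FDR 0.0431), so the METTL3 row can hold reads of both. MYCN, the amplified oncogene of this line, was higher, with 3021 ± 134 CPM in siControl and 4638 ± 169 CPM in siMETTL3 (SD, n = 3; edgeR FDR 5.17e-06). CPM values are counts relative to a library size adjusted with TMM factors, and FDR is the Benjamini-Hochberg adjusted p over all 15311 genes tested, with a threshold of 0.05. All 10 noradrenergic neuroblastoma markers that were listed passed the filter on low counts, and their summed level was 3548 to 3777 CPM in siControl and 4513 to 4861 CPM in siMETTL3, with 5 members higher and 2 lower. The 10 mesenchymal markers summed to 370 to 402 CPM and to 316 to 347 CPM, with 3 higher and 4 lower. The 5 immune cell markers summed to between 1.56 and 3.06 CPM, and PTPRC, CD14, CD3E and TYROBP had under 10 counts in every library. Schwann cell markers (5 of 6 in the tables, 4 tested, 1 higher) summed to 14.1 to 15.1 CPM in siControl and to 18.5 to 20.2 CPM in siMETTL3. The 5 fibroblast markers (2 tested, 1 higher) summed to between 82.9 and 96.3 CPM. The 4 endothelial markers (3 tested, 1 higher) summed to between 5.64 and 9.84 CPM, and the 4 epithelial markers (2 tested, none higher or lower) to between 6.09 and 8.36 CPM. The part of these markers in the results below was not tested. siControl replicate 3 was the shallowest library and stood farthest from the others of its group, with a chi-square per degree of freedom of 16.9 against siControl replicate 1 and 9.23 against siControl replicate 2, where pairs of siMETTL3 libraries gave 3.11 to 3.84.

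Of the 8 genes, 1 passed the threshold, UGCG, which was higher in siMETTL3 (12.5%, against 37.8% of all 15311 genes tested, 18.6% higher and 19.2% lower). The count was 1, and the gene was UGCG, in every alternative fit, including the fit without siControl replicate 3. All 8 genes passed the filter on low counts. Their median log2 fold change was -0.027, against -0.0021 over all genes tested, and their median absolute log2 fold change was 0.12, against 0.21. In 3 of the 8 genes the values of the groups did not overlap, UGCG upward and ST8SIA1 and NEU1 downward, where 49.9% of all genes tested showed no overlap (24.8% upward and 25.1% downward). In these bulk libraries, fewer cells with a transcript and less transcript per cell cannot be told apart.

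The start regions of these 3 genes are printed because theirs were the values that separated the groups. They are the 250 bases before the RefSeq start, 5′ to 3′ on the gene's own strand (GRCh38.p14), with CACGTG, the palindromic E-box read by MYC-family and TFE-family factors, and GGGCGG on either strand, the GC box read by SP-family factors, in capitals. The windows are chr9:111896564-111896813 on the plus strand for UGCG, chr12:22334708-22334957 on the minus strand for ST8SIA1, and chr6:31862822-31863071 on the minus strand for NEU1. The windows of UGCG and NEU1 lie where their counted spans begin. That of ST8SIA1 lies inside its counted span, which runs on upstream to 22437041, and no start farther upstream was searched.
UGCG: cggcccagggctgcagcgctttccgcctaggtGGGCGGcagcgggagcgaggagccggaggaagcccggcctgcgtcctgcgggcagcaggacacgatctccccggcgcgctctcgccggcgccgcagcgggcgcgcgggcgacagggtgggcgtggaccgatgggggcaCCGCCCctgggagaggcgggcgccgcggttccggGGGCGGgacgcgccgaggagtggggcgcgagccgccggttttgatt
ST8SIA1: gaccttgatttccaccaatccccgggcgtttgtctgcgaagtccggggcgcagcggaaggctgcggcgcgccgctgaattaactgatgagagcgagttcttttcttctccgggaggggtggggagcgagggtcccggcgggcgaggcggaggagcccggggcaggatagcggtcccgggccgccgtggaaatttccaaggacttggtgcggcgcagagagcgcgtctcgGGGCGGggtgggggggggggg
NEU1: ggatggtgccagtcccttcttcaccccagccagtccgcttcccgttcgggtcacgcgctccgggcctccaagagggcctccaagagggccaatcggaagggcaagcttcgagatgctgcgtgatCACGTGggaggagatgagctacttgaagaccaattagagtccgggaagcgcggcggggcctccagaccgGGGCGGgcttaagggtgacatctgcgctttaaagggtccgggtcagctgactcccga
The UGCG window held GGGCGG at 3 places and no CACGTG. The ST8SIA1 window held GGGCGG at 1 place and no CACGTG. NEU1 held 1 CACGTG, whose first base lay 126 bases before the start, and 1 GGGCGG. Over 21271 such windows of genes in the tables, 54.3% held GGGCGG and 7.38% held CACGTG. The windows of UGCG and ST8SIA1 held no CANNTG, the general E-box that includes CACGTG, and that of NEU1 held 3, where 57.9% of all windows held at least 1. A letter match is a description of the window, not a bound site. The table of start regions held 4 of the 8 genes, with 5 start sites for ST3GAL5.

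UGCG encodes ceramide glucosyltransferase, which adds glucose to ceramide and so commits it to glycosphingolipids (GRCh38, chromosome 9, 111896814 to 111935369, plus strand). It was measured at 27.6, 35.3 and 33.1 CPM in siControl replicates 1 to 3 and at 42.1, 38.8 and 43.2 CPM in the siMETTL3 replicates. Every siMETTL3 library was above every siControl library, and siControl replicate 1 was the lowest of the 6. The log2 fold change was 0.37 with a standard error (SE) of 0.093, a 1.29-fold rise with a 95% interval of 1.13 to 1.49 (edgeR FDR 0.00636). Leaving out each library in turn, the log2 fold change lay between 0.27 (without siControl replicate 1) and 0.45 (without siControl replicate 2), and the edgeR FDR between 0.000848 and 0.0386. The span of UGCG overlaps no other gene of the tables.

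**Figure D1:**
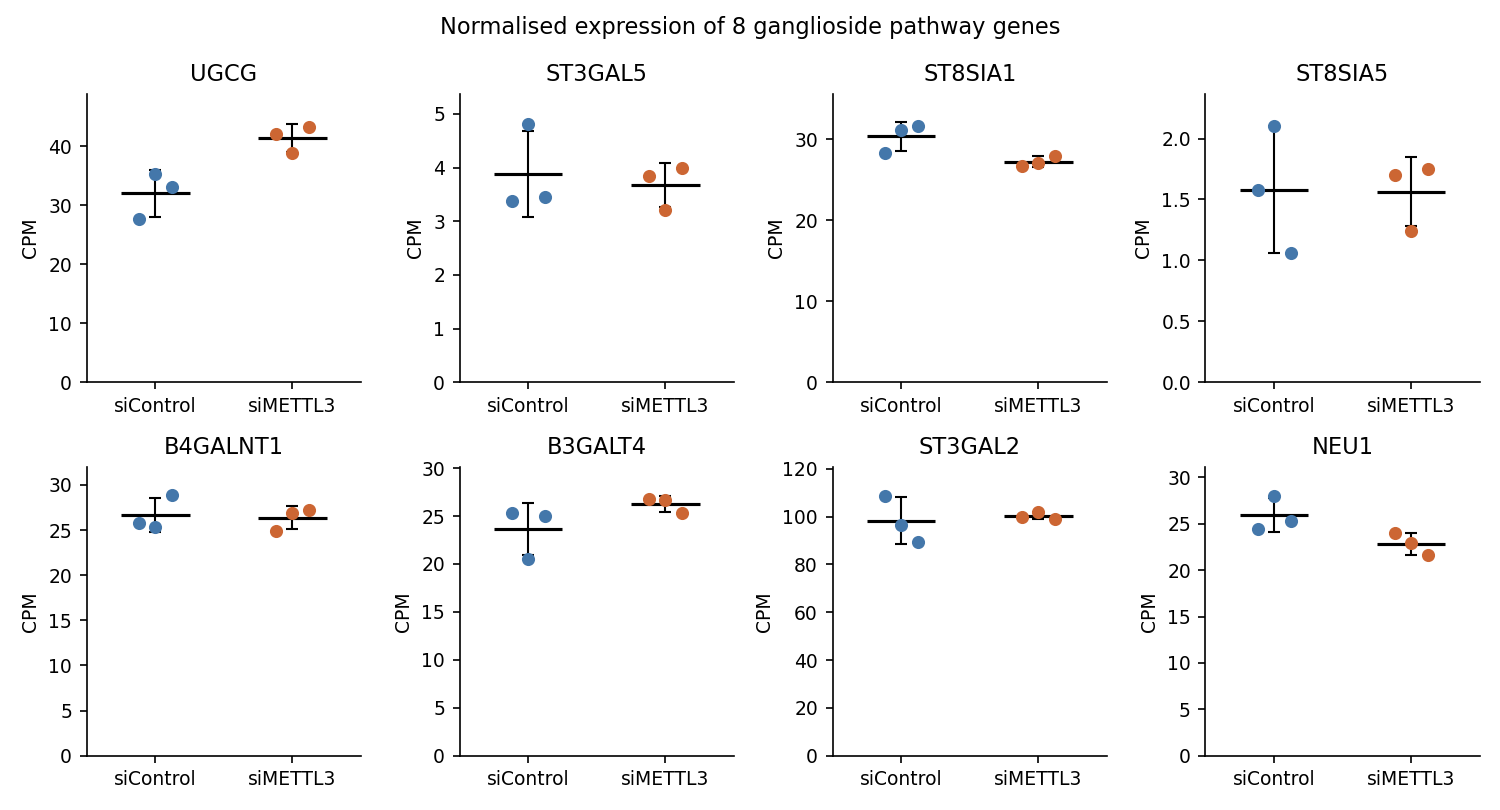
Normalised expression in CPM (vertical axes, each from 0) of the 8 genes in the siControl (blue) and siMETTL3 (orange) libraries; points are libraries, lines are means and bars are SD over 3 libraries. UGCG rises from a mean of 32.03 to 41.4 CPM, ST8SIA1 and NEU1 are lower in all 3 siMETTL3 libraries without passing the threshold, and the groups overlap in the other 5 genes.

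ST3GAL5 encodes GM3 synthase, the sialyltransferase that opens the ganglioside series (chromosome 2, 85837120 to 85905199, minus strand). Its row held few reads: 73, 96 and 52 counts in siControl and 79, 70 and 82 in siMETTL3. The corresponding levels were 3.38, 4.80 and 3.45 CPM, and 3.84, 3.22 and 3.99 CPM. The groups overlapped, with siControl replicate 2 above all other libraries. The log2 fold change was -0.081 (95% interval -0.52 to 0.35, edgeR FDR 0.789), so that a change of up to about 1.28-fold upward or to 0.699 of the control level lies within the interval at this depth.

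ST8SIA1 encodes GD3 synthase, which adds the second sialic acid and supplies the precursor of GD2 (chromosome 12, 22063773 to 22437041, minus strand). It was measured at 28.3, 31.2 and 31.6 CPM in siControl and at 26.7, 27.1 and 27.95 CPM in siMETTL3. All 3 siMETTL3 libraries lay below all 3 siControl libraries, but siMETTL3 replicate 3 and siControl replicate 1 were close. The log2 fold change of -0.15 (SE 0.081) did not pass the threshold (95% interval -0.33 to 0.02, edgeR FDR 0.152). The FDR stayed between 0.0719 and 0.325 in every alternative that tested the gene.

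The count of ST8SIA1 is not only its own. Per the file headers, counting ran over the gene span with no strand setting, and reads on several genes went to all of them. The span of ST8SIA1 overlaps 1902 bases of CMAS, which lies on the opposite strand and encodes the enzyme that activates sialic acid for all sialyltransferases. The overlap holds 548 exon bases of the canonical CMAS transcript, 31.4% of its length, and 0 exon bases of the canonical ST8SIA1 transcript (GENCODE release 44). CMAS had 785, 863 and 647 counts in siControl and 610, 791 and 759 in siMETTL3, between 111% and 139% of the count of ST8SIA1 in the same library. CMAS was measured at 40.8 ± 3.85 CPM in siControl and 34.3 ± 4.06 CPM in siMETTL3 (SD, n = 3; log2 fold change -0.25, edgeR FDR 0.0606). CMAS passed without siControl replicate 1 (edgeR FDR 0.00832), with the replicate number as a blocking factor (0.0128) and with no filter on low counts (0.0441), and over all alternatives its FDR went from 0.00832 to 0.274. How many reads the 2 rows share was not measured, so the level of ST8SIA1 is an upper limit.

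B4GALNT1 encodes GM2/GD2 synthase, the enzyme that makes GD2 itself (chromosome 12, 57623409 to 57633239, minus strand). It was measured at 25.8, 25.4 and 28.9 CPM in siControl and at 24.9, 26.9 and 27.3 CPM in siMETTL3. The groups overlapped almost entirely, with both the highest value, in siControl replicate 3, and the lowest, in siMETTL3 replicate 1, set by single libraries. The log2 fold change was -0.014 (SE 0.087, edgeR FDR 0.920), and the 95% interval of the fold was 0.871 to 1.13. That interval belongs to the row as counted, shared reads included, and the transcript alone can lie outside it. It was lower by this small margin with the main scaling and 0.0096 higher with total count scaling.

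The end of B4GALNT1 overlaps 2743 bases of SLC26A10, on the plus strand, and 51.1% of the canonical B4GALNT1 transcript lies there. The locus AC025165.6, also on the plus strand, overlaps B4GALNT1 by 2717 bases, all within that stretch. A read that B4GALNT1 shares with SLC26A10 is counted for both, and SLC26A10 had 131 to 175 counts in siControl and 213 to 241 in siMETTL3. At least 68.4% to 69.9% of the B4GALNT1 counts in siControl, and at least 58.4% to 59.5% in siMETTL3, were therefore reads that SLC26A10 does not share. These smallest unshared levels were 17.7, 17.4 and 20.2 CPM in siControl and 14.5, 15.8 and 16.2 CPM in siMETTL3. SLC26A10 itself was higher in siMETTL3 (8.27 ± 0.370 against 10.8 ± 0.411 CPM; SD, n = 3; log2 fold change 0.39, edgeR FDR 0.0186), and how many of its reads arise from B4GALNT1 was not measured. AC025165.6 had 94.5% to 105% of the counts of B4GALNT1, more than SLC26A10 in every library, and a log2 fold change of 0.048 (edgeR FDR 0.682). Where it overlaps B4GALNT1, a read is also counted for SLC26A10, so the SLC26A10 counts cap what AC025165.6 shares with B4GALNT1.

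**Figure D2:**
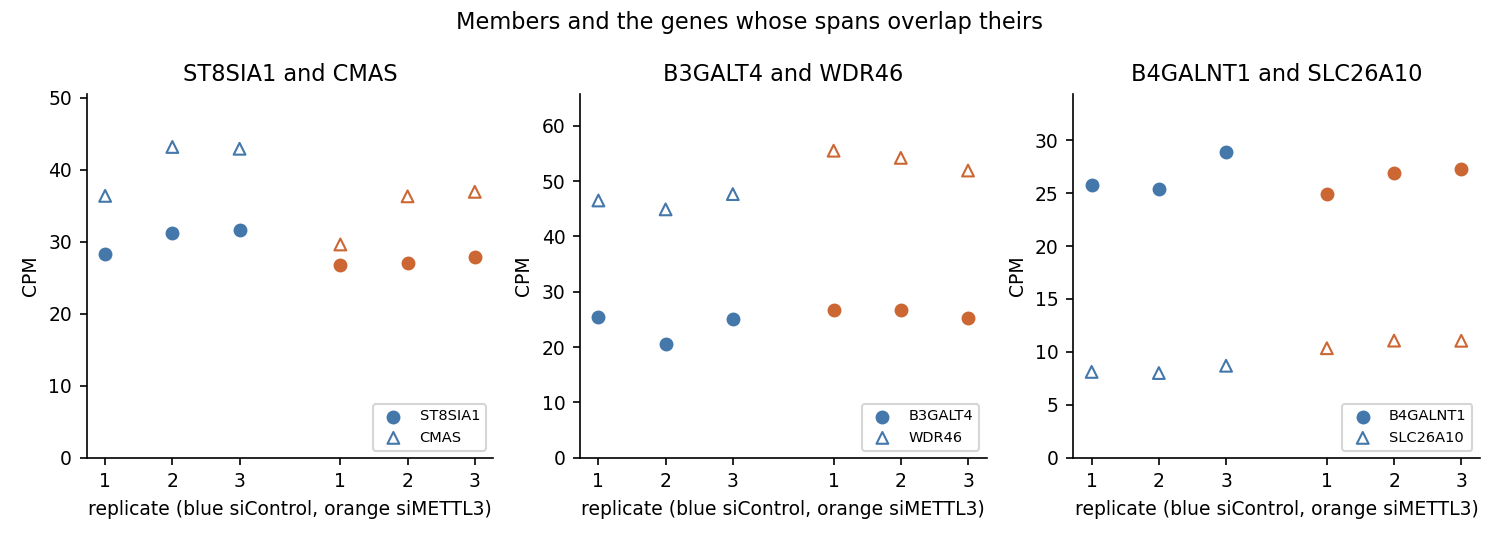
Levels in CPM (vertical axes from 0) by replicate for ST8SIA1, B3GALT4 and B4GALNT1 (filled circles) and for CMAS, WDR46 and SLC26A10, whose spans overlap theirs (open triangles), in siControl (blue) and siMETTL3 (orange). CMAS and WDR46 lie above ST8SIA1 and B3GALT4 in every library, and SLC26A10, at 8.01 to 11.1 CPM, lies below B4GALNT1 in every library.

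The genes that extend the chain past GD2 did not pass the threshold. B3GALT4 encodes the galactosyltransferase that makes GM1 and GD1b (chromosome 6, 33277123 to 33284832, plus strand), and it was measured at 25.4, 20.5 and 25.02 CPM in siControl and at 26.8, 26.6 and 25.3 CPM in siMETTL3. The groups overlapped by a narrow margin, and siControl replicate 2 was the lowest library (log2 fold change 0.15, 95% interval -0.053 to 0.36, edgeR FDR 0.233). Without that library the log2 fold change was 0.059 (edgeR FDR 0.683). WDR46, on the opposite strand, covers 74.3% of the B3GALT4 span, in a stretch that holds 0 exon bases of the canonical B3GALT4 transcript. With 42.8% of its own canonical transcript in the overlap, WDR46 had 183% to 219% of the B3GALT4 counts. It was higher in siMETTL3 (46.3 ± 1.39 against 53.9 ± 1.82 CPM; SD, n = 3; log2 fold change 0.22, edgeR FDR 0.0177), so the row of B3GALT4 holds an unmeasured share of reads from a gene that was itself called.

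ST3GAL2 encodes the sialyltransferase that makes GD1a and GT1b, the main gangliosides of mature neurons (chromosome 16, 70375977 to 70439237, minus strand). It was measured at 108.7, 96.4 and 89.5 CPM in siControl and at 99.8, 102.1 and 99.1 CPM in siMETTL3. The siMETTL3 libraries lay inside the wider siControl range, which siControl replicates 1 and 3 set, and the log2 fold change was 0.029 (95% interval -0.12 to 0.18, edgeR FDR 0.784). ST8SIA5, which adds further sialic acids to complex gangliosides (chromosome 18, 46667821 to 46759257, minus strand), had 34, 42 and 16 counts in siControl and 35, 27 and 36 in siMETTL3. Its levels, from 1.06 CPM in siControl replicate 3 to 2.102 CPM in siControl replicate 2, overlapped between the groups. The interval of its log2 fold change, -0.71 to 0.63 around -0.040 (edgeR FDR 0.935), was the widest of the 8.

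NEU1, the lysosomal sialidase, acts in breakdown rather than synthesis (chromosome 6, 31857659 to 31862822, minus strand). It was measured at 24.5, 27.98 and 25.3 CPM in siControl and at 24.0, 22.9 and 21.6 CPM in siMETTL3. The groups did not overlap, with siControl replicate 1 just above siMETTL3 replicate 1. The log2 fold change of -0.18 (SE 0.089) did not pass the threshold (95% interval -0.37 to 0.0097, edgeR FDR 0.126, and 0.0730 to 0.392 over the alternatives).

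**Figure D3:**
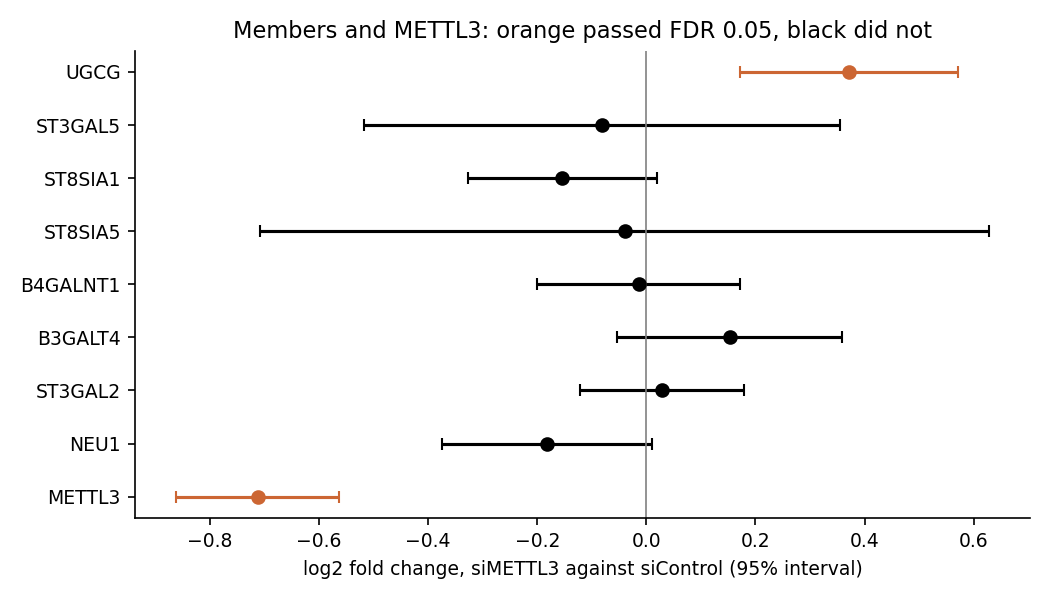
Log2 fold change of siMETTL3 against siControl (horizontal axis) with its 95% interval from the edgeR fit for the 8 genes and METTL3; orange marks an FDR under 0.05. The interval of UGCG lies above 0 and that of METTL3 below it, and the intervals of the other 7 genes include 0, with ST8SIA5 the widest.

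Ratios between 2 enzymes of a library do not depend on library scaling. The log2 ratio of B4GALNT1 to ST8SIA1 counts (0.5 added to each) was -0.14, -0.30 and -0.13 in siControl and -0.10, -0.0098 and -0.036 in siMETTL3. It was higher in every siMETTL3 library, by 0.14 on average, with a two-sided exact permutation p of 0.1, the smallest that 3 against 3 libraries can give. The log2 ratio of ST8SIA1 to ST3GAL5 was 2.98 ± 0.255 in siControl and 2.89 ± 0.156 in siMETTL3 (SD, n = 3; exact permutation p = 0.7). That of ST8SIA5 to ST8SIA1 was -4.29 ± 0.504 and -4.12 ± 0.265 (SD, n = 3; exact permutation p = 0.7). These 3 ratios were the ones computed, and the p-values adjusted over them were 0.7, 0.3 and 0.7 in the order ST8SIA1 to ST3GAL5, B4GALNT1 to ST8SIA1, and ST8SIA5 to ST8SIA1. The reads that ST8SIA1 shares with CMAS enter all 3, and those that B4GALNT1 shares with SLC26A10 enter the ratio of B4GALNT1 to ST8SIA1. With the SLC26A10 counts taken off B4GALNT1, an alternative chosen after seeing the data, that ratio was -0.72 ± 0.105 in siControl and -0.81 ± 0.058 in siMETTL3 (SD, n = 3; exact permutation p = 0.3). The difference was then -0.089, the groups overlapped, and the direction of the ratio is therefore not settled by these counts. Without siControl replicate 2 the difference of the ratio as counted was 0.083.

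Levels were compared between genes as CPM per kilobase of the canonical transcript, and again per kilobase of the gene span, because reads were counted over the span, introns included. Per transcript kilobase in siControl, B3GALT4 (13.9 ± 1.59) and ST3GAL2 (12.4 ± 1.23) were highest, and their ranges overlapped. UGCG (8.09 ± 1.00) and NEU1 (7.73 ± 0.546) followed and were not apart either. Below them B4GALNT1 (4.97 ± 0.356), ST8SIA1 (3.13 ± 0.183), ST3GAL5 (0.889 ± 0.184) and ST8SIA5 (0.114 ± 0.0374) each lay apart from the next over all 6 libraries (SD, n = 3 throughout). The levels of B3GALT4, ST8SIA1 and B4GALNT1 are those of rows with shared reads and so are upper limits, and the places of these 3 genes in the order are not secure. As counted, the order B4GALNT1, ST8SIA1, ST3GAL5, ST8SIA5 was the same per kilobase of span, where the siControl levels were 2.71, 0.0814, 0.0570 and 0.0173, although NEU1 (5.02) was then first and 5 of the 8 genes changed rank. The order of the 8 genes was the same in siMETTL3 as in siControl with either length.

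**Figure D4:**
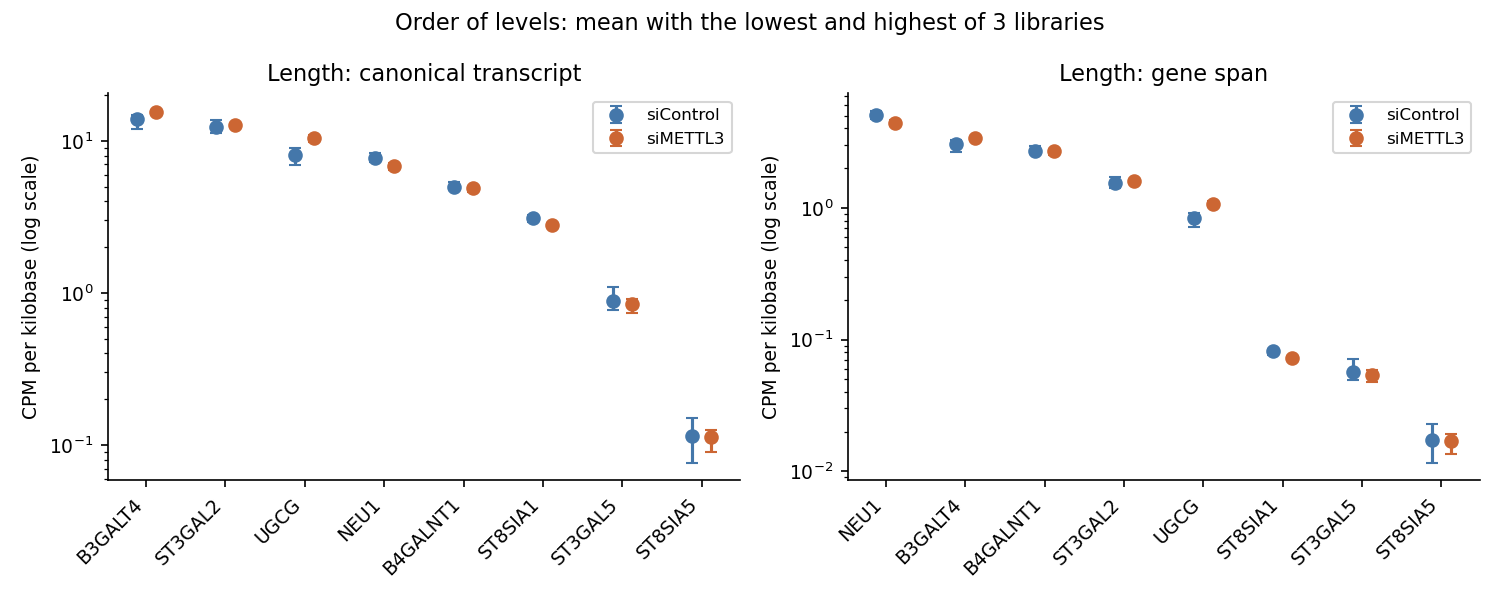
Level of each gene in CPM per kilobase (vertical axes, log scale), by canonical transcript length (left) and by gene span (right), in siControl (blue) and siMETTL3 (orange); points are means and bars run from the lowest to the highest of 3 libraries. ST8SIA1, ST3GAL5 and ST8SIA5 are the 3 lowest genes with either length.

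The coding sequences of the 8 genes were searched for GGACT, the letters most often found at methylated adenosines. ST3GAL2 and B3GALT4 held 2 each, UGCG, ST3GAL5, ST8SIA1 and B4GALNT1 held 1 each, and ST8SIA5 and NEU1 held 0. Over the 14591 tested genes with a coding sequence, the median was 1, and 24.7% held 0. The rest of each transcript was not searched: the coding part is 1128 of 13897 bases of the canonical transcript in ST8SIA5 and 1245 of 3353 in NEU1. The match marks letters and not a measured modification. By the pattern over the 6 libraries, AC117378.1, AC008676.3 and DCLK1 were most like B4GALNT1, with Pearson correlations of log2 CPM of 0.996, 0.982 and 0.975 among 11763 genes. SETD9, NANOS1 and JRKL were most like ST8SIA1, at 0.999, 0.998 and 0.997. Such values are a description of 6 libraries in 2 groups, and 37 genes for B4GALNT1 and 1038 for ST8SIA1 reached at least 0.9.

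The wider pathway was described with 5 lists by role, 74 genes in all, of which 72 were in the tables and 69 were tested. Among these 69 genes, 17 passed the threshold upward and 12 downward (42.03%, against 37.8% of all genes tested), with a median log2 fold change of 0.051. The lists were not tested as sets, and in bulk they share the marker changes given above.

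Of 20 tested genes of ceramide synthesis and transport, which precedes UGCG, 5 were higher and 1 was lower (median log2 fold change 0.095). The share of this list that passed the threshold was below the 37.8% of all genes tested. SPTLC1, a subunit of the serine palmitoyltransferase that starts sphingolipid synthesis, rose from 23.4 ± 1.80 CPM to a mean of 34.4 ± 2.07, a log2 fold change of 0.56 (edgeR FDR 0.000233). SPTSSA, a small activating subunit of the same enzyme whose span overlaps another gene, rose from 51.2 ± 1.53 to 64.9 ± 3.16 CPM (0.34, edgeR FDR 0.00106). CERS5, a ceramide synthase, rose from 53.5 ± 6.80 to 73.0 ± 2.97 CPM (0.44, edgeR FDR 0.000933). All values are mean ± SD with n = 3. In these 3, which were named for their low FDR, and in UGCG every siMETTL3 library was above every siControl library. The same held for 24.8% of all genes tested.

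Of 8 tested genes around the lactosylceramide step, 3 were higher and 2 were lower (62.5%, against 37.8% of all genes tested, median -0.057). B4GALT5, the main lactosylceramide synthase, rose from 123 ± 6.02 to 144 ± 1.45 CPM (SD, n = 3; log2 fold change 0.22, edgeR FDR 0.00676). Without siControl replicate 2 it did not pass (edgeR FDR 0.0504, against 0.00159 to 0.0504 over all alternatives). B4GALT6, its paralogue with the same activity, was measured at 26.1 ± 1.77 and 24.6 ± 1.21 CPM (SD, n = 3; edgeR FDR 0.479). PLEKHA8, which carries glucosylceramide through the Golgi, fell from 150 ± 6.61 to 125 ± 2.03 CPM (SD, n = 3; -0.26, edgeR FDR 0.00238). SLC35A3, a Golgi nucleotide-sugar transporter whose span overlaps another gene, rose (0.42, edgeR FDR 0.000363).

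The list of other sialyl- and glycosyltransferases held the largest changes of the wider pathway that passed the test. Of 17 tested genes, 5 were higher and 3 were lower (47.1%, against 37.8% of all genes tested, median 0.17). ST3GAL1, which sialylates O-glycans and can act on the same ganglioside acceptors as ST3GAL2, was measured at 25.1, 25.6 and 22.9 CPM in siControl and at 68.0, 63.8 and 70.8 CPM in siMETTL3. The groups were far apart, and the rise was 2.74-fold (log2 fold change 1.46, SE 0.075, edgeR FDR 1.56e-08). ST8SIA4, which is no ganglioside enzyme but builds polysialic acid on the adhesion molecule NCAM, fell from 8.92 ± 1.31 to 4.44 ± 0.568 CPM (SD, n = 3; edgeR FDR 0.000338), to 0.502 of the control level. Its paralogue ST8SIA2, in the same list and at a higher level, went the other way. ST8SIA2 rose from 119 ± 6.01 to 136 ± 6.19 CPM (SD, n = 3; log2 fold change 0.19, edgeR FDR 0.0266). ST3GAL6, which sialylates glycoproteins and whose span overlaps another gene, rose from 212 ± 7.71 to 274 ± 5.74 CPM (SD, n = 3; edgeR FDR 0.000139). ST6GALNAC5, which adds sialic acid to GM1b and related gangliosides, was measured at 87.3 ± 10.9 and 77.6 ± 2.27 CPM (SD, n = 3; edgeR FDR 0.114). Without siControl replicate 1 its FDR was 0.00868, and the alternatives reached up to 0.392.

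Of 9 genes for the supply and modification of sialic acid, 2 were higher and 1 was lower (33.3%, against 37.8% of all genes tested, median -0.12). GNE, the enzyme that starts sialic acid synthesis, rose from 43.1 ± 0.881 to 56.5 ± 2.03 CPM (SD, n = 3; log2 fold change 0.39, edgeR FDR 0.000382), and NPL, which degrades sialic acid, rose as well (0.32, edgeR FDR 0.0126). CASD1, the enzyme that O-acetylates sialic acids, GD2 and GD3 among their carriers, fell from 97.5 ± 3.12 to 76.2 ± 3.30 CPM (SD, n = 3; -0.36, edgeR FDR 0.000436). The spans of GNE and CASD1 overlap other genes. SLC35A1, the Golgi transporter of activated sialic acid, was measured at 26.4 ± 1.57 and 23.4 ± 0.830 CPM (SD, n = 3; edgeR FDR 0.119).

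Of 15 tested genes of ganglioside and sphingolipid breakdown other than NEU1, 2 were higher and 5 were lower (46.7%, against 37.8% of all genes tested, median -0.16). PSAP, the precursor of the saposins that present sphingolipids to lysosomal hydrolases, fell from 451 ± 16.5 to 370 ± 3.70 CPM (SD, n = 3; log2 fold change -0.29, edgeR FDR 0.000987). ASAH1, acid ceramidase, fell from 32.2 ± 0.846 to 23.8 ± 0.774 CPM (SD, n = 3; -0.44, edgeR FDR 0.000684). HEXA, a lysosomal enzyme of GM2 breakdown (log2 fold change -0.16, edgeR FDR 0.0817), and the GM2 activator GM2A (0.23, edgeR FDR 0.137) did not pass. HEXA passed without siControl replicate 3 (edgeR FDR 0.0491, range 0.0491 to 0.271 over the alternatives), and GM2A passed without siControl replicate 1 (edgeR FDR 0.0177, range 0.0177 to 0.390). NEU3, the plasma membrane sialidase that prefers gangliosides, rose from 29.6 ± 2.03 to 36.5 ± 1.18 CPM (SD, n = 3; 0.30, edgeR FDR 0.00916). GLB1, the lysosomal beta-galactosidase that degrades GM1, rose (0.21, edgeR FDR 0.0209), but it did not pass when siControl replicate 2 was left out (edgeR FDR 0.0699), nor without replicate 1 (0.118) or replicate 3 (0.0542) of siMETTL3, with 0.0141 to 0.118 over all alternatives. The spans of HEXA, GM2A and GLB1 overlap other genes.

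**Figure D5:**
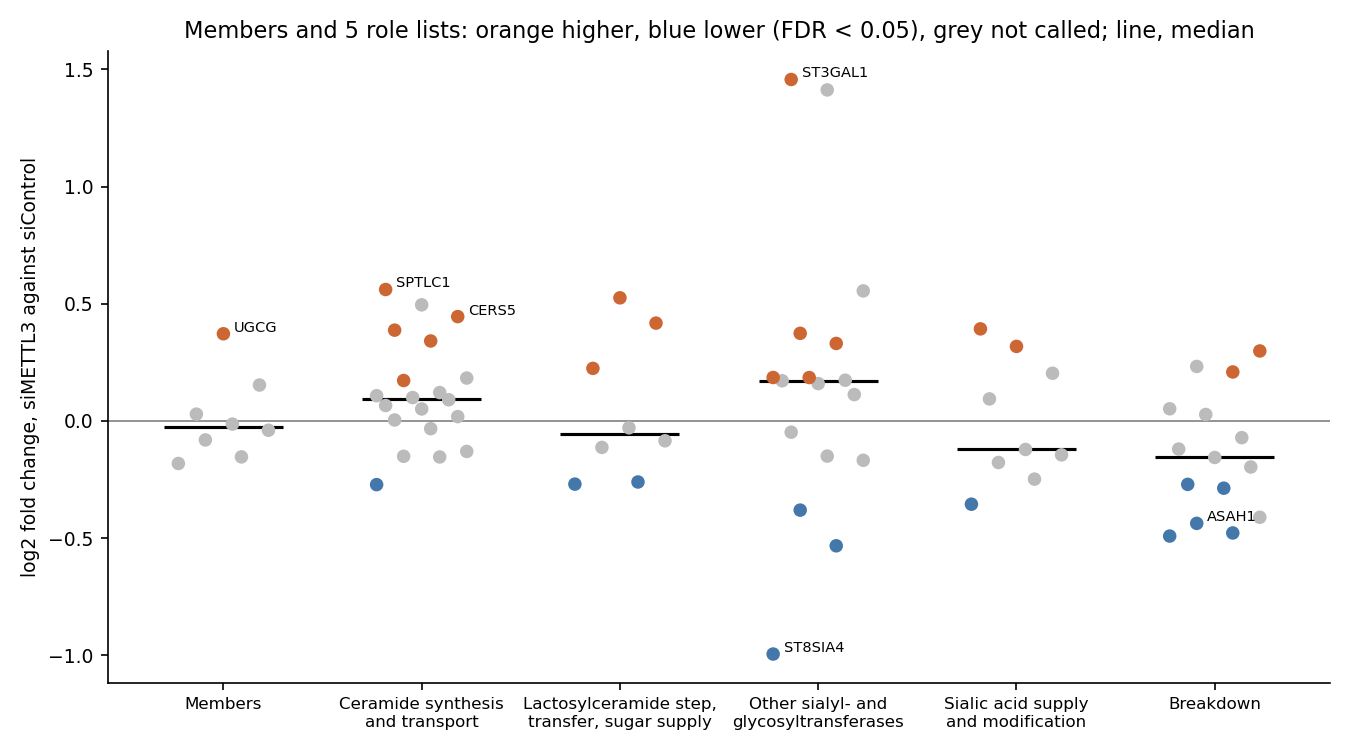
Log2 fold change of siMETTL3 against siControl (vertical axis) for the 8 genes and for the tested genes of the 5 role lists; each point is a gene, orange higher and blue lower at an FDR under 0.05, grey not past it, and lines are list medians. UGCG is the coloured point among the 8, and ST3GAL1, at 1.46, is the highest point of the wider pathway.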

How the data were processed

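RNA-seq libraries of Kelly cells, 3 siControl and 3 siMETTL3, were grouped by their titles. The deposited values are raw read counts per gene. The deposited counts came from featureCounts 1.5.3, per the file headers, over gene spans of a GENCODE release 33 protein-coding annotation, with reads on several genes given to each and no strand option. Per the submitters' processing notes, HISAT2 2.1.0, Trimmomatic 0.36 and GRCh38 were used. Spans are GRCh38, and transcript lengths come from GENCODE release 44. Promoters come from RefSeq (GRCh38.p14).

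Counts were filtered with filterByExpr, scaled by TMM and tested with edgeR 4.0.16 (R 4.3.3; robust glmQLFit and glmQLFTest, no covariate) over all 15311 genes, with Benjamini-Hochberg adjustment. The standard error is the absolute log2 fold change over the square root of F. The test was checked on simulated data with 200 genes changed 2-fold, where 9.25% of the calls were false, above the threshold of 0.05. Here 5786 of 15311 genes were called, so the false share in these data may differ and was not measured. Single calls near the threshold may be less firm than their FDR. Ratios were tested by exact permutation. Alternatives were other scalings, filters, DESeq2 1.42.0, limma-voom (limma 3.58.1), no robust option, a block for the replicate number, genes without overlapping spans, and each library left out.

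The members and lists were chosen with earlier results of these data known. Named were the 8 members, METTL3, MYCN, from each role list the up to 3 called genes of lowest FDR, 12 further listed pathway genes, the 3 genes most correlated with B4GALNT1 and with ST8SIA1 (average log2 CPM of at least 3), and genes overlapping a member. TOX4 and ST8SIA2 were named after their values were seen. Counts give no protein or lipid levels. Some listed genes are not reported here, and SGMS2, A4GALT and NEU2 did not pass the filter.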

Additional observations from a re-analysis of the deposited data

How the results depend on the processing

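UGCG was higher and past the threshold, and the other 7 genes were not past it, in every alternative fit that tested them. B4GALNT1, ST8SIA1 and B3GALT4, whose spans overlap others, were not tested among genes without overlaps. There 3750 of 9518 genes (39.4%) and 17 of 41 other pathway genes (41.5%) were called, because fewer genes were tested. Genes with a log2 fold change near 0 changed sign without becoming significant: B4GALNT1 was at 0.0096 with total count scaling, and with each library left out the ranges were -0.049 to 0.042 for B4GALNT1, -0.034 to 0.11 for ST3GAL2, -0.18 to 0.11 for ST3GAL5 and -0.23 to 0.21 for ST8SIA5. B4GALNT1 turned positive without siControl replicate 3 or siMETTL3 replicate 1, ST3GAL2 turned negative without siControl replicate 3, and ST3GAL5 and ST8SIA5 turned positive without siControl or siMETTL3 replicate 2. The difference of the log2 ratio went from -0.23 to 0.012 for ST8SIA1 to ST3GAL5 and from -0.11 to 0.38 for ST8SIA5 to ST8SIA1, both changing sign without siControl replicate 3, and from 0.083 to 0.17 for B4GALNT1 to ST8SIA1, which was -0.089 with the SLC26A10 counts taken off B4GALNT1. The cause was not tested. Span in place of transcript length moved 5 ranks. Same-numbered libraries did not all deviate together by more than 0.1 (correlations of 0.069, 0.077 and 0.15), but every library correlated best with its own number (-0.13 to 0.067 for different numbers), a hint from the data and not the design. With the replicate block, 6166 genes and 30 other pathway genes were called, UGCG had a log2 fold change of 0.37 (edgeR FDR 0.00443), and no call among the 8 genes changed. Of the 357 values of the 23 genes of the role lists named by rule, which leaves out ST8SIA2, 347 kept their side of the threshold, 6 became stronger and 4 weaker.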
